A study of Mus musculus with 96 samples.

Results

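Mouse embryonic fibroblasts that had been starved of serum and then refed were compared between 4 to 6 h and 2 to 3 h after serum, the hours that follow the first burst of transcription in early G1. The libraries were chosen by their labelled Cycle and hour alone, with no measured value, and are 14 of the 96 samples of the series. Cycle 1 gave 3 libraries at 2, 2.5 and 3 h and 5 libraries at 4, 4.5, 5, 5.5 and 6 h, and Cycle 2 gave 3 libraries at 2, 2.5 and 3 h and 3 libraries at 4, 5 and 6 h. All were untreated primary MEFs of strain CF1 from E13 embryos, held for 36 h in medium with 0.5% FCS and then brought to 20% FCS at time 0. Each Cycle is a time course of its own, with its own starved libraries, and each hour was sequenced once in it. The difference between the 2 windows was taken within each Cycle on log2(value + 1) and the 2 differences were then averaged, so that a log2 difference of 1 is a doubling.

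Serum carries growth factors that reach quiescent fibroblasts through receptor kinases and Srf, and the cell answers in waves. Immediate early genes such as Fos and Egr1 are transcribed without new protein and shut off again by their own protein products, by phosphatases and by decay of their short-lived mRNAs. Delayed early genes follow, among them cytokines, proteases and cytoskeletal genes, and the cell builds up ribosomes, nucleotides and cyclin D before the restriction point and S phase.

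The value of a gene is its number of reads on exons scaled to a total of 10000000 reads in the library, not divided by length, so levels are compared between libraries of 1 gene and not between genes. The table holds 15895 genes, and the 14 libraries hold 4623110 to 12079977 reads in it (median 9384307), which makes 1 read worth a value of 0.719 to 1.87. The 6 h library of Cycle 1 and the 3 later libraries of Cycle 2 were shallower than every 2 to 3 h library, so that depth moved with the window. The 5.5 h library of Cycle 1 lay farthest from the mean of its window, with a median absolute deviation of 0.221 on the log2 scale over 8700 genes, where the others lay at 0.0653 to 0.185. All 12 fibroblast markers were measured, with means over the 14 libraries from 2239 (Fbln1) to 92362 (Col1a2), and 8 of them fell and 1 rose. Their summed value ran from 443053 to 490354 at 2 to 3 h and from 333266 to 393175 at 4 to 6 h in Cycle 1, and from 357371 to 386064 and from 288466 to 346029 in Cycle 2. Markers of 6 other cell types (56 genes measured) were mostly low, and none was at 0 in all 14 libraries. By the test given below 24.4% of all genes rose and 16.1% fell. In the neural and glial list 2 of 10 genes (20%) rose (Nes and Tubb3), 1 (10%) fell (Ncam1) and 7 did not pass the test. Its sum, most of it from Nes (mean 2671), ran from 2190 to 3817 at 2 to 3 h and from 4470 to 5875 at 4 to 6 h in Cycle 1, and from 2484 to 3050 and from 3568 to 3917 in Cycle 2. In the endothelial list 3 of 10 genes (30%) rose and 1 (10%) fell, but 1 rose and 1 fell under each of the other scalings given below. The list had 0 rises and 1 fall without the 5.5 h and 6 h libraries of Cycle 1 and the 4 h library of Cycle 2. Its sum, most of it from Flt1 (mean 1517), ran from 988 to 2058 and then 1980 to 3061 in Cycle 1, and from 1352 to 2176 and then 1797 to 2184 in Cycle 2. In the chondrocyte and osteoblast list 2 of 8 genes (25%) rose and 3 (37.5%) fell, with sums of 1442 to 2018 and then 986 to 1730 in Cycle 1, and of 1345 to 1564 and then 645 to 959 in Cycle 2. The blood list was higher in Cycle 2 (4042 to 5014) than in Cycle 1 (1155 to 1683). The part of these lists in the results was not tested. In bulk RNA, fewer cells of a type and less RNA per cell cannot be told apart.

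Between 2 to 3 h and 4 to 6 h a large share of the transcriptome moved, in both directions. By limma with an adjusted p under 0.05 and the same sign in both Cycles, 3881 of 15895 genes (24.4%) rose and 2565 (16.1%) fell. Of these, 582 (3.66%) rose and 605 (3.81%) fell at least 2-fold. The median over all genes was 0.05 on the log2 scale. The split between rises and falls depended on the scaling, with 3096 rises and 3136 falls under TMM, 2920 and 3303 under median ratios and 3254 and 3212 when edgeR was run on whole reads, and the 2-fold split moved too, to 458 and 719, 438 and 757, and 483 and 750 in the same order. For the gene groups below, counts under these scalings are given where they differ by more than 1.5 times or end the lead of rises over falls. The share of each group that rose or fell is to be read beside the 24.4% and 16.1% of all genes. With only 1 difference per Cycle, a replicate block of 2 pairs, 682 rises and 654 falls were past the threshold. No member of the mitochondrial ribosomal, nucleotide synthesis, nucleolar, NF-kB, collagen and interferon lists below was called there. The same held for the splicing, G1 cyclin, chaperone, mitotic and Myc lists. The Yap/Taz list kept 7 rises and 0 falls, and the immediate early list 1 rise and 10 falls. Nothing says that the hours of a Cycle were separate cultures, and the libraries of a window also follow a trend in time, so the p-values measure the spread between these libraries alone.

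The Cycles share no library, and they moved together. Of 731 genes called at 2-fold or more as rising in Cycle 1 alone, 702 (96.0%) were also higher at 4 to 6 h in Cycle 2 and 283 (38.7%) by 2-fold or more, where 54.4% and 4.02% of all genes were. Of 742 called as falling in Cycle 1 alone, 697 (93.9%) were also lower in Cycle 2 and 269 (36.3%) by 2-fold or more, against 45.5% and 4.51% of all genes. The change was smaller in Cycle 2, with a median of 0.869 against 1.27 for those rises and -0.825 against -1.35 for those falls, in genes that were chosen in Cycle 1. Over the 8700 genes with a mean value of at least 100, the median size of the change was 0.331 in Cycle 1 and 0.248 in Cycle 2.

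**Figure D1:**
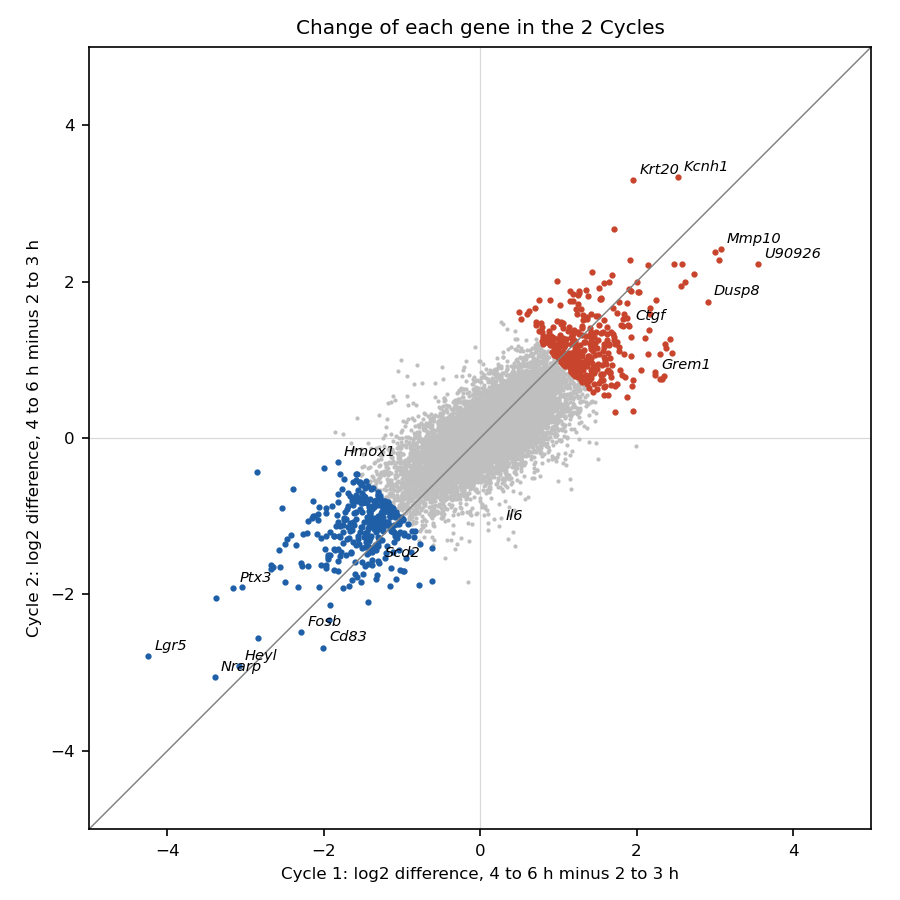
Log2 difference between 4 to 6 h and 2 to 3 h in Cycle 1 (horizontal) and in Cycle 2 (vertical). Shown are genes for which the means of each Cycle and window average at least 20. Red and blue points are the rises and falls of at least 2-fold among them, grey points the other genes and the line marks equal change. Most red points lie below the line and most blue points above it.

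Notch pathway genes were among the largest falls. Notch receptors are cut when a ligand such as Jag1 on a neighbouring cell binds them, and the freed domain switches on Hes and Hey repressors and Nrarp, which feeds back on the complex. Of 18 genes of the list, 9 (50%) fell and 2 (11.1%) rose, where 16.1% and 24.4% of all genes did. The median was -0.43 against 0.05 over all genes. Nrarp stood at 229, 209 and 69.1 in the 2 to 3 h libraries of Cycle 1 and at 28.1, 9.65, 13.0, 6.50 and 17.2 in those of 4 to 6 h, and at 144, 127 and 52.8 and then 15.0, 12.3 and 7.19 in Cycle 2. The mean log2 difference was -3.23 ± 0.38 (SE), with an adjusted p of 0.00068. On build NCBIM37 the gene lies on chromosome 2 at 25036278-25038850 on the plus strand. The values of both Cycles separated without overlap, and the 10 h libraries stood at 5.96 and 0, close to the 4.51 and 0.95 of the libraries taken 1 h before serum. Heyl, a Hey repressor, stood at 1180, 998 and 587 in the first window and at 293, 119, 108, 48.3 and 63.5 in the second window of Cycle 1, and at 845, 738 and 437 and then 184, 69.2 and 48.0 in Cycle 2. The mean log2 difference was -3.00 ± 0.42 (SE), with an adjusted p of 0.00077. Hey1, its relative, fell by 2.11 ± 0.23 (SE, adjusted p = 0.00068). For Jag1, the Cycle 1 libraries gave 9040, 8254 and 6077 at 2 to 3 h and 4561, 3421, 2953, 2277 and 2490 at 4 to 6 h, and those of Cycle 2 gave 8344, 8670 and 6845 and then 3891, 1794 and 1654. It fell 2.97-fold (adjusted p = 0.00077). The receptor gene Notch1 fell from 1383, 1549 and 1160 to 649, 402, 330, 198 and 287 in Cycle 1 and from 1355, 1418 and 1143 to 753, 307 and 296 in Cycle 2, again without overlap (log2 difference -1.82 ± 0.27). Hes1 did not separate the windows in either Cycle. Its value stood at 1016, 1072 and 484 and then at 352, 437, 445, 578 and 477 in Cycle 1, and its fall of 0.61 ± 0.22 (adjusted p = 0.0384) was lost in 10 of 14 fits that left out 1 library (adjusted p up to 0.102). Hes6 rose by 1.03 ± 0.18. The ligand gene Dll4 fell by 1.91 ± 0.40 from a mean value of 3.98, a few reads per library.

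**Figure D2:**
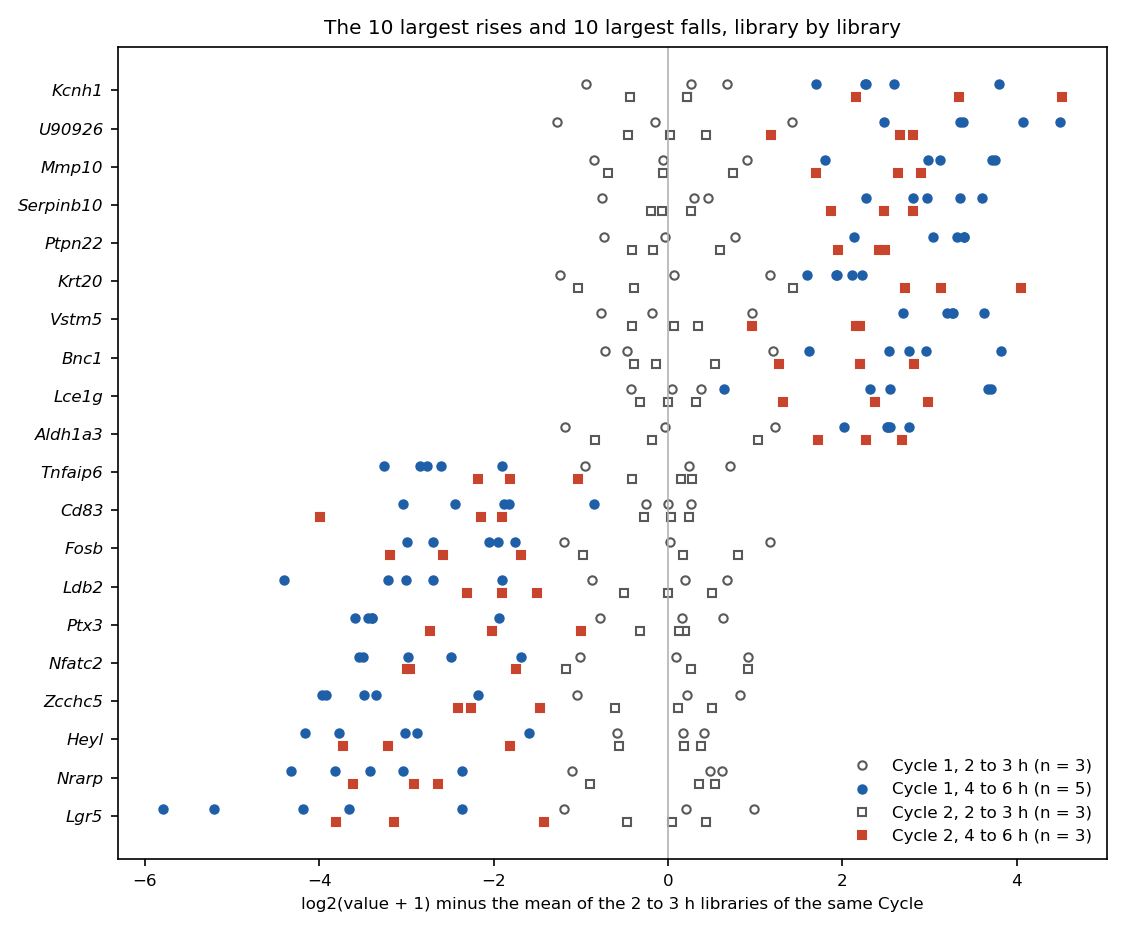
Each library's log2(value + 1) for the 10 largest rises and the 10 largest falls, given as the distance from the mean of the 2 to 3 h libraries of its Cycle. Open symbols are 2 to 3 h and filled symbols 4 to 6 h, with circles for Cycle 1 and squares for Cycle 2. In all 20 genes the open and filled symbols of a Cycle do not overlap. The genes were chosen by the size of their change in these same libraries, so this is no further evidence.

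The tail of the immediate early response was still falling. Of 31 genes in the immediate early list, 15 (48.4%) fell, 8 of them at least 2-fold, and 6 (19.4%) rose. The median was -0.35, and of all genes 16.1% fell and 24.4% rose. The value of Fosb was 1912, 862 and 371 at 2 to 3 h and 250, 218, 204, 130 and 106 at 4 to 6 h of Cycle 1, and 2421, 1566 and 702 and then 431, 230 and 151 in Cycle 2. The windows did not overlap, and Fosb, an AP-1 subunit, fell 5.24-fold (log2 difference -2.39 ± 0.41 SE, adjusted p = 0.00133). Fosb was at 55.6 in Cycle 1 and 31.5 in Cycle 2 at 1 h before serum, and already at 17294 and 9099 in the libraries labelled 0 h, right before serum. Fos went from 914 to 24883 and from 466 to 15149 over the same hour, so the libraries labelled 0 h go against their label for these genes and are not used as a starved level here. Egr1, the zinc finger factor, had values of 6003, 4064 and 2255 and then 2507, 2062, 2662, 1520 and 1269 in Cycle 1, where the windows overlapped, and of 7414, 5642 and 2881 and then 2262, 1474 and 1041 in Cycle 2, where they did not. The mean log2 difference was -1.34 ± 0.30 (SE), with an adjusted p of 0.00428. Fos fell by 0.96 ± 0.18 (adjusted p = 0.00229), and Egr3 and Arc, which encode a zinc finger factor and a cytoskeletal protein, fell by 1.72 ± 0.43 and 1.56 ± 0.23. The AP-1 subunit gene Fosl2 rose by 0.52 ± 0.12 (adjusted p = 0.00662), Klf2 by 0.84 ± 0.14 and Ier5l by 1.18 ± 0.33. Myc, which drives growth genes, did not pass the test (log2 difference -0.23 ± 0.11, adjusted p = 0.128). Of the 14 genes of its network 3 (21.4%) rose and 2 (14.3%) fell (median 0.02), near the shares of all genes (24.4% and 16.1%). Under TMM 2 rose and 2 fell, under median ratios 2 and 3 and by edgeR 3 and 3. Mycl1 and Mlx rose by 0.93 and 0.74, and Mnt fell by 0.74.

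**Figure D3:**
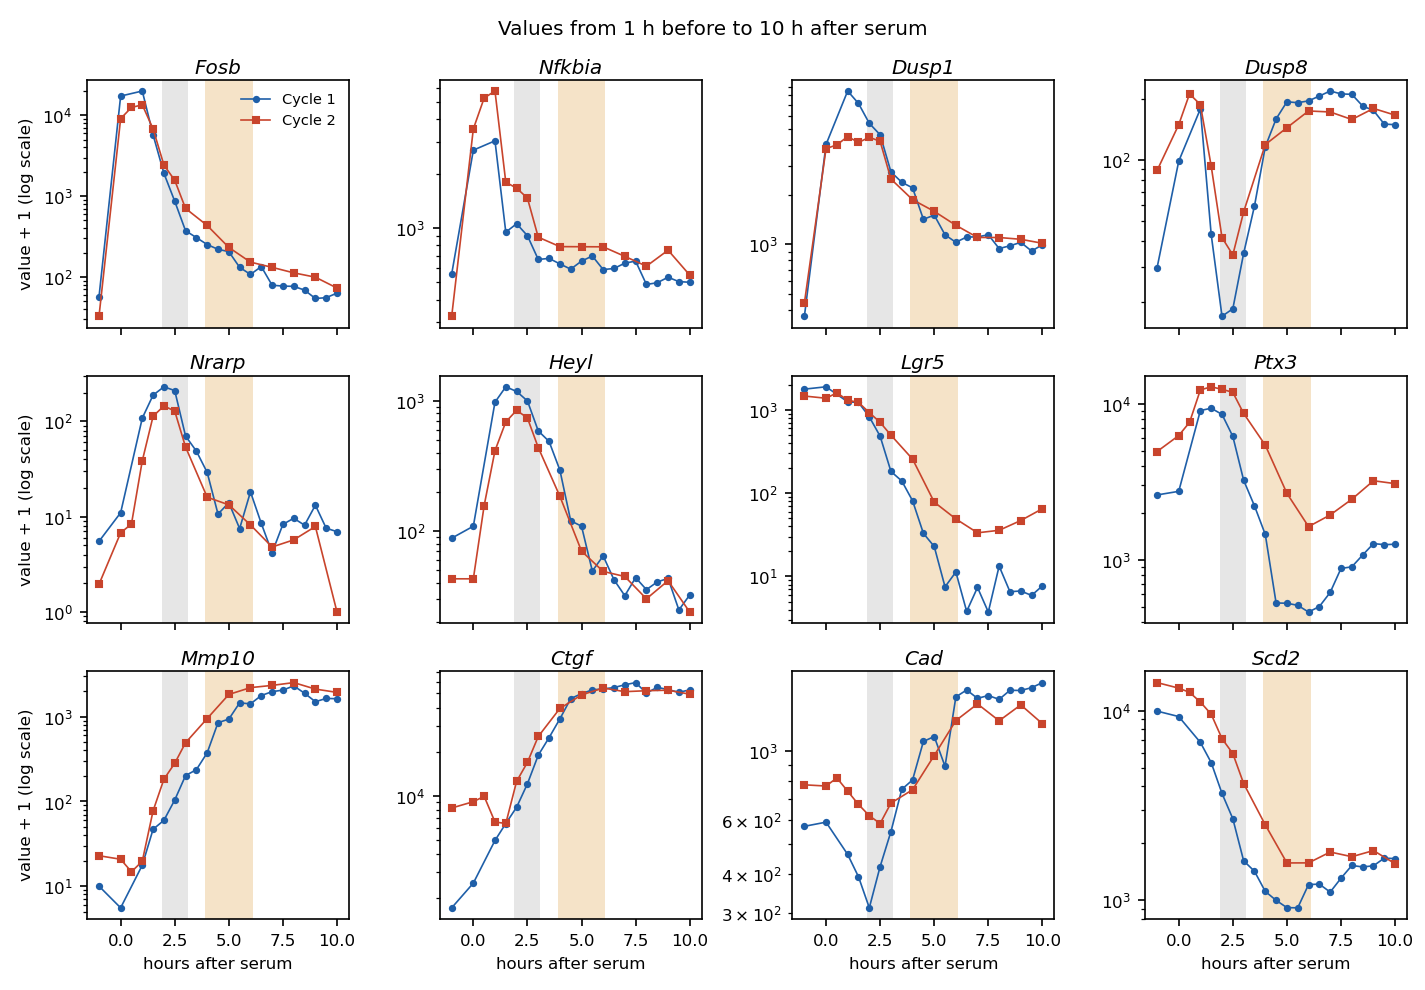
Value + 1 on a log scale from 1 h before to 10 h after serum in Cycle 1 (blue circles) and Cycle 2 (red squares) for 12 genes, with the 2 to 3 h window in grey and the 4 to 6 h window in tan. Fosb, Nfkbia and Dusp1 are already high in the library labelled 0 h, Dusp8 has its lowest values in the grey window, and Mmp10 and Ctgf climb through both windows.

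MAPK feedback genes split. The dual specificity phosphatases (Dusp) remove the phosphates that activate the MAP kinases, and Sprouty and Spred proteins act above them. In the list of 19 genes 6 (31.6%) rose and 8 (42.1%) fell (median -0.06), against 24.4% and 16.1% of all genes. Dusp8 stood at 16.1, 17.6 and 33.8 in the 2 to 3 h libraries of Cycle 1 and at 115, 158, 192, 190 and 194 in those of 4 to 6 h, and at 40.6, 33.2 and 54.6 and then 118, 143 and 173 in Cycle 2. Dusp8, whose product acts on the stress kinases Jnk and p38, thus rose 5.01-fold (log2 difference 2.33 ± 0.20 SE, adjusted p = 0.00035) out of a trough, since it had been at 177 in Cycle 1 and 186 in Cycle 2 at 1 h. Dusp1, the immediate early phosphatase of Erk, Jnk and p38, stood at 5413, 4613 and 2747 in the first window and at 2197, 1416, 1502, 1140 and 1027 in the second window of Cycle 1, and at 4455, 4212 and 2486 and then 1863, 1583 and 1303 in Cycle 2. It fell 2.59-fold (log2 difference -1.37 ± 0.22 SE, adjusted p = 0.001). Neither gene overlapped between the windows. Dusp5 and Dusp2, nuclear phosphatases, fell by 1.14 ± 0.17 and 1.21 ± 0.18, and Dusp16 and Spred3 rose by 0.81 ± 0.12 and 0.62 ± 0.14. The promoters of Dusp8 and Dusp1 are shown because both hold the full CRE TGACGTCA, the palindrome that Creb and Atf factors bind, although the genes moved in opposite directions. The sequences are RefSeq promoters of build GRCm38.p6 from 250 bases before to 50 after the start, on the minus strand at chr7:142095235-142095534 and chr17:26508423-26508722, with the motif in capitals.
Dusp8: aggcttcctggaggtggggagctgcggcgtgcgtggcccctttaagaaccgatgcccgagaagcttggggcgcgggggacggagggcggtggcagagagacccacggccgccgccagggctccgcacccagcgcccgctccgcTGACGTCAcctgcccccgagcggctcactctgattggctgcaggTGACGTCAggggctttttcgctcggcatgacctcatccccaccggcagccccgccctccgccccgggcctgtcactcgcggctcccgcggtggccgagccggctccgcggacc
Dusp1: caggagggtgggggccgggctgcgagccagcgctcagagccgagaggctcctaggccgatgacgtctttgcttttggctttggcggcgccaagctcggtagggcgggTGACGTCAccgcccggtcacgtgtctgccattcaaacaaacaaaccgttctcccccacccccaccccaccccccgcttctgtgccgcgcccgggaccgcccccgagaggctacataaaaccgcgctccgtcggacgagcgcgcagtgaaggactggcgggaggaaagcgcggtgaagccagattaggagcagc
The motif begins at -107 and -63 from the start site in Dusp8 and at -143 in Dusp1. Of 14629 promoters of the genes tested, 2.82% hold TGACGTCA on either strand, against 2.53% of the promoters of the 2-fold rises and 1.57% of those of the 2-fold falls, and the shorter TGACG, which also counts the full motif, is in 28.7%, 23.9% and 21.8%.

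Genes that destabilise mRNA and feed back on NF-kB fell as well. In the list of mRNA decay and antiproliferative regulators, 10 of 16 genes (62.5%) fell and none rose (median -0.33). Of all genes, 16.1% fell and 24.4% rose. For Zc3h12a, the Cycle 1 libraries gave 1257, 1043 and 591 at 2 to 3 h and 342, 270, 254, 183 and 175 at 4 to 6 h, and those of Cycle 2 gave 1055, 802 and 492 and then 300, 277 and 209. Zc3h12a, the endonuclease that cuts cytokine mRNAs, fell 3.33-fold without overlap (log2 difference -1.74 ± 0.23 SE, adjusted p = 0.00076). Zfp36, which binds AU-rich elements and recruits deadenylases, fell by 1.00 ± 0.18, Pnrc1 by 0.87 ± 0.13 and the antiproliferative gene Btg2 by 0.81 ± 0.15. Of 16 NF-kB subunit and inhibitor genes 7 (43.8%) fell and none rose, also with a median of -0.33. Under the other scalings 10 to 11 fell. Nfkbia, which encodes the inhibitor that holds NF-kB in the cytoplasm, was at 1054, 905 and 668 and then 631, 590, 654, 698 and 587 in Cycle 1 and at 1662, 1463 and 888 and then 787, 786 and 785 in Cycle 2. Its windows overlapped in Cycle 1 and not in Cycle 2, and it fell by 0.58 ± 0.14 (adjusted p = 0.00753). The subunit gene Nfkb1 fell by 0.79 ± 0.15 and Rel by 0.55 ± 0.19.

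Cytokine genes fell more often than they rose, with 14 falls (48.3%), 8 of them at least 2-fold, and 6 rises (20.7%) among 29 genes (median -0.45). The share of rises lay under that of all genes (24.4%), and the share of falls above it (16.1%). The value of Ptx3 was 8551, 6179 and 3231 at 2 to 3 h and 1450, 526, 524, 508 and 460 at 4 to 6 h of Cycle 1, and 12382, 11852 and 8675 and then 5427, 2662 and 1628 in Cycle 2. Ptx3, a secreted pattern recognition protein that also binds hyaluronan matrix, fell 5.8-fold (log2 difference -2.54 ± 0.34 SE, adjusted p = 0.00076). Its windows did not overlap in either Cycle, and it rose again after 6 h, to 1254 and 3073 at 10 h. Cxcl10, a chemokine of T cells, fell by 1.63 ± 0.35 and the growth factor gene Csf3 by 1.56 ± 0.30. Il1a stood at 32.3, 76.5 and 187 in the 2 to 3 h libraries of Cycle 1 and at 354, 468, 479, 443 and 306 in those of 4 to 6 h, and at 155, 152 and 238 and then 397, 462 and 378 in Cycle 2. Il1a, the alarm cytokine, rose 3.45-fold (log2 difference 1.78 ± 0.31 SE, adjusted p = 0.00139) without overlap, and by 10 h it was back at 118 and 129. Il11 and Tslp, cytokines of the Il6 and Il7 families, rose by 1.07 ± 0.24 and 1.02 ± 0.22. Among 15 hyaluronan and provisional matrix genes 5 (33.3%) fell and 3 (20%) rose (median -0.18). Tnfaip6, which crosslinks hyaluronan, fell 4.52-fold, from 3572, 2578 and 1124 to 583, 357, 319, 303 and 227 in Cycle 1 and from 1833, 1681 and 1136 to 740, 432 and 333 in Cycle 2, with no overlap (log2 difference -2.18 ± 0.29 SE, adjusted p = 0.00077). The synthase gene Has1 fell by 0.69 ± 0.21, and Hyal2 and Tnc rose by 1.02 ± 0.21 and 0.71 ± 0.15.

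A further set of large falls had no list in common. For Lgr5, the Cycle 1 libraries gave 822, 481 and 181 at 2 to 3 h and 79.9, 31.9, 21.9, 6.50 and 10.3 at 4 to 6 h, and those of Cycle 2 gave 925, 705 and 495 and then 255, 77.0 and 48.0. Lgr5, the R-spondin receptor known from intestinal stem cells, had the largest fall of the genes with a mean value of at least 20 (log2 difference -3.52 ± 0.57 SE, adjusted p = 0.00106), and had been at 1769 and 1462 before serum, so it fell from its starved level throughout. It lies on chromosome 10 at 114887367-115024836 on the minus strand of NCBIM37. Ldb2, a LIM domain binding cofactor, and Zcchc5, a retrotransposon-derived gene, had the same course. Ldb2 went from 1211 at 1 h before serum to 786, 562 and 269 and then 131, 60.1, 75.2, 52.0 and 22.3 in Cycle 1, and fell by 2.47 ± 0.37. Zcchc5 went from 2101 to 1132, 743 and 309 and then 140, 61.6, 56.1, 39.9 and 41.2, and fell by 2.71 ± 0.36. By contrast Nfatc2, a calcium-regulated transcription factor, had risen from 5.26 to 583 at 1.5 h of Cycle 1 and from 4.77 to 313 in Cycle 2, and fell by 2.70 ± 0.43 between the windows. Cd83, an immunoglobulin family surface protein, fell by 2.34 ± 0.37 to values of 19.2, 8.91, 5.69, 9.28 and 3.43 in Cycle 1 and 11.2, 13.4 and 2.40 in Cycle 2, that is to a few reads.

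Quiescence and clock genes also fell more often than they rose. FoxO factors drive growth arrest genes until Akt sends them out of the nucleus. Of 30 FoxO and quiescence genes 14 (46.7%) fell and 4 (13.3%) rose (median -0.40), against 16.1% and 24.4% of all genes. The value of Gas1 was 1418, 565 and 267 at 2 to 3 h and 209, 170, 179, 151 and 184 at 4 to 6 h of Cycle 1, and 1667, 1323 and 718 and then 584, 427 and 386 in Cycle 2. Gas1, a growth arrest gene named for its level in starved fibroblasts, fell 2.92-fold (log2 difference -1.55 ± 0.32 SE, adjusted p = 0.00301) without overlap. Trib1 and Bcl2l11, which encode a pseudokinase and a death-promoting Bcl2 relative, fell by 1.47 ± 0.22 and 1.43 ± 0.24. Bcl2l11 had first risen, from 433 in Cycle 1 and 191 in Cycle 2 at 1 h before serum. Its means were 1076 and 709 at 2 to 3 h and 369 and 323 at 4 to 6 h. Cited2, a cofactor of Cbp and p300, rose by 1.37 ± 0.17, and Trib2 and Tsc22d3 by 0.88 ± 0.14 and 0.89 ± 0.20. In the circadian clock, Clock and Arntl activate Per and Cry genes, whose proteins inhibit them in turn, and serum resets the cycle in fibroblasts. Of 18 clock genes 9 (50%) fell, 5 of them at least 2-fold, and 2 (11.1%) rose (median -0.40). Under the other scalings 10 to 12 fell and 1 to 2 rose. Per2 was at 181, 135 and 86.4 and then 54.7, 35.6, 33.3, 11.1 and 15.5 in Cycle 1, with no overlap, and at 142, 94.2 and 48.1 and then 58.1, 32.4 and 25.2 in Cycle 2, where 1 early value lay among the later ones. The mean log2 difference was -1.75 ± 0.38 (SE), with an adjusted p of 0.00389. The repressor genes Bhlhe40 and Bhlhe41 fell by 1.59 ± 0.20 and 1.38 ± 0.25 and Nr1d1 by 0.99 ± 0.13, while Nfil3 and Clock rose by 0.55 ± 0.16 and 0.41 ± 0.13.

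Proteases and their inhibitors were among the largest rises. Matrix metalloproteinases (Mmp) cut collagen and other matrix and are held by Timps, and the plasminogen activators make plasmin, which the serpins of the family restrain. Of 21 Mmp and Timp genes 7 (33.3%) rose and 8 (38.1%) fell (median -0.11), against 24.4% and 16.1% of all genes. Mmp10 stood at 58.9, 103 and 201 in the 2 to 3 h libraries of Cycle 1 and at 374, 849, 935, 1456 and 1415 in those of 4 to 6 h, and at 182, 281 and 492 and then 951, 1828 and 2202 in Cycle 2. Mmp10, a stromelysin, rose 6.7-fold (log2 difference 2.74 ± 0.38 SE, adjusted p = 0.00077) without overlap. It lies on chromosome 9 at 7502352-7510238 on the plus strand of NCBIM37. Mmp9, a gelatinase, rose by 1.19 ± 0.18, and Mmp1a by 1.56 ± 0.40 from values of a few reads, while the membrane-anchored Mmp15 and Mmp16 fell by 1.08 ± 0.19 and 1.20 ± 0.24. In the plasminogen activator list 4 of 8 genes (50%) rose and 1 (12.5%) fell (median 0.04), but 2 rose and 1 to 2 fell under the other scalings. Without the 5.5 h and 6 h libraries of Cycle 1 and the 4 h library of Cycle 2, 2 rose and 2 fell. Serpinb2, plasminogen activator inhibitor 2, stood at 457, 668 and 1122 in the first window and at 1939, 4047, 4273, 5272 and 7148 in the second window of Cycle 1, and at 1037, 1410 and 2298 and then 3876, 5855 and 8458 in Cycle 2. It rose 4.79-fold (log2 difference 2.26 ± 0.32 SE, adjusted p = 0.00081) and went on to 10048 and 8889 at 8 h. Its neighbour in the same serpin cluster, Serpinb10, rose by 2.69 ± 0.25 from values of 1.90, 5.04 and 5.76 to 22.6, 37.5, 33.3, 49.2 and 58.4 in Cycle 1 and from 6.05, 4.16 and 4.63 to 20.6, 31.8 and 40.2 in Cycle 2. The urokinase receptor gene Plaur rose by 0.85 ± 0.14. Of 18 Adamts proteases 6 (33.3%) fell and 1 (5.56%) rose (median -0.40). Adamts5, an aggrecanase, fell by 1.78 ± 0.30 and Adamts6 rose by 1.02 ± 0.27.

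The promoters of Mmp10 and Serpinb2, which rose, and of Tnfaip6, which fell, are shown because all 3 hold the AP-1 motif TGANTCA, to which dimers of Fos and Jun proteins bind. They are RefSeq promoters of the same length and build on the plus strand, at chr9:7502092-7502391, chr1:107511173-107511472 (the first of 2 starts) and chr2:52037863-52038162, with the motif in capitals.
Mmp10: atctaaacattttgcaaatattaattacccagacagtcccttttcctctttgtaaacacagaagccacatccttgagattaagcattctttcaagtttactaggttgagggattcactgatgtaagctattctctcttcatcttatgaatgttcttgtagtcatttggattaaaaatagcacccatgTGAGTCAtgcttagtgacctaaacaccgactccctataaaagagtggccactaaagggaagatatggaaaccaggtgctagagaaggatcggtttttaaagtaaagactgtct
Serpinb2: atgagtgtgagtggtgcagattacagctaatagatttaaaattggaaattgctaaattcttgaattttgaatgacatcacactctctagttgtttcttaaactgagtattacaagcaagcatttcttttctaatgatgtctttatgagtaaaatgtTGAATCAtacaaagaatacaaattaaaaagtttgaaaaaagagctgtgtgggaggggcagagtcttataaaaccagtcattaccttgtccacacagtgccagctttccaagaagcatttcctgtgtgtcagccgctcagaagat
Tnfaip6: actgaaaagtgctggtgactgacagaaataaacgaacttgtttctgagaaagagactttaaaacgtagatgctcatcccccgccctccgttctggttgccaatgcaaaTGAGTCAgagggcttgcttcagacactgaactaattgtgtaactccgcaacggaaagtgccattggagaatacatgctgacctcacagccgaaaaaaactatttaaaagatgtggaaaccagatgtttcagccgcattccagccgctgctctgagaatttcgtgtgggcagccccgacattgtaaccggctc
The motif, searched like the others on both strands, begins at -63, -94 and -142 from the start site. It is in 8.17% of the promoters of the 2-fold rises and in 8.54% of those of the 2-fold falls, against 5.76% of all 14629. The E-box CACGTG is in 8.17%, 9.23% and 9.43% in the same order, the CArG box of Srf in 1.95%, 2.26% and 1.37%, the NF-kB motif in 11.1%, 12.4% and 10.7% and TCACCCCAC in 0.778%, 0.523% and 0.581%. A promoter was found for 423 of the 582 rising and 417 of the 605 falling genes, and no share was tested.

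The other large rises were a channel, keratins and enzymes. For Kcnh1, the Cycle 1 libraries gave 3.80, 10.1 and 13.7 at 2 to 3 h and 28.8, 43.1, 54.4, 43.6 and 127 at 4 to 6 h, and those of Cycle 2 gave 2.59, 4.62 and 4.63 and then 20.6, 48.0 and 110. Kcnh1 encodes a voltage-gated potassium channel and rose 7.63-fold (log2 difference 2.93 ± 0.41 SE, adjusted p = 0.0008), the largest rise of the genes with a mean value of at least 20. Its gene lies on chromosome 1 at 194014666-194334041 on the plus strand of NCBIM37. It reached 259 and 157 at 10 h. U90926, a transcript listed by its GenBank clone name, stood at 16.1, 36.1 and 110 in the first window and at 229, 421, 429, 933 and 692 in the second window of Cycle 1, and at 89.9, 126 and 167 and then 281, 789 and 872 in Cycle 2. It rose 7.39-fold (log2 difference 2.89 ± 0.45 SE, adjusted p = 0.00097). The value of Krt20 was 8.54, 22.7 and 49.7 at 2 to 3 h and 67.3, 84.6, 85.3, 104 and 96.1 at 4 to 6 h of Cycle 1, and 3.46, 1.85 and 14.8 and then 37.5, 50.2 and 95.9 in Cycle 2. Krt20, an intermediate filament gene of epithelia, rose 6.18-fold (log2 difference 2.63 ± 0.43 SE, adjusted p = 0.00108), again without overlap. The keratin genes Krt6a and Krt75, which like Krt6b lie in 1 cluster of related sequence whose reads may be shared, rose by 2.20 ± 0.31 and 2.18 ± 0.36. The epithelial marker list summed to 649 to 873 at 2 to 3 h and 936 to 1182 at 4 to 6 h in Cycle 1, and to 318 to 362 and 358 to 467 in Cycle 2, with Epcam at a mean of 15.5, and its part was not tested. Lce1g, of the late cornified envelope family with close copies, rose by 2.40 ± 0.45 from values of 6.64, 3.36 and 5.04 to 8.13, 28.2, 33.3, 75.2 and 73.8 in Cycle 1.

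Ptpn22, a tyrosine phosphatase known from lymphocytes, rose 6.35-fold, from 9.49, 16.0 and 28.8 to 75.4, 142, 173, 183 and 182 in Cycle 1 and from 23.3, 27.7 and 48.1 to 124, 181 and 173 in Cycle 2 (log2 difference 2.67 ± 0.28 SE, adjusted p = 0.00068). Aldh1a3, which makes retinoic acid, rose from 338, 750 and 1797 to 3113, 4514, 4408, 4444 and 5238 and from 181, 286 and 663 to 1069, 1572 and 2097 (log2 difference 2.35 ± 0.37 SE, adjusted p = 0.001). Bnc1, a zinc finger gene, dipped below its starved level before it climbed. It stood at 54.1 and 125 at 1 h before serum, at 10.4, 12.6 and 42.5 and then 56.9, 108, 127, 146 and 266 in Cycle 1, and at 23.3, 19.4 and 38.0 and then 63.7, 122 and 189 in Cycle 2 (log2 difference 2.41 ± 0.40 SE, adjusted p = 0.00116). Vstm5, a membrane protein gene, had the same dip and rose by 2.49 ± 0.29 to values of 31.1, 46.8, 44.7, 46.4 and 60.1 in Cycle 1 and 11.2, 26.8 and 27.6 in Cycle 2.

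Of the gene lists, the Yap/Taz and Srf targets had the largest share of rises. Yap and Taz enter the nucleus in spread cells and act with Tead factors, and Srf is switched on when actin polymerises. In the list of 31 genes 18 (58.1%) rose, 7 of them at least 2-fold, and 1 (3.23%) fell, with a median of 0.34. Of all genes 24.4% rose and 16.1% fell. Under TMM, median ratios and edgeR 15 to 16 rises and 1 to 2 falls were called in the list. Ctgf stood at 8345, 12068 and 18904 in the 2 to 3 h libraries of Cycle 1 and at 33478, 46040, 49823, 52844 and 53662 in those of 4 to 6 h, and at 12537, 16907 and 25386 and then 39467, 48834 and 54418 in Cycle 2. Ctgf, a matricellular growth factor and Yap target, rose 3.18-fold (log2 difference 1.67 ± 0.21 SE, adjusted p = 0.00068) with no overlap, and its value stayed between 50224 and 59259 from 7 to 10 h of Cycle 1. Cyr61, a relative of it, rose by 0.63 ± 0.10. Ankrd1, an ankyrin repeat protein and Yap target, stood at 96.8, 108 and 125 in the first window and at 247, 310, 363, 539 and 604 in the second window of Cycle 1, and at 382, 356 and 386 and then 723, 1177 and 1476 in Cycle 2. The mean log2 difference was 1.67 ± 0.22 (SE), with an adjusted p of 0.0007. Tead4, a Tead factor, rose by 1.76 ± 0.49 (adjusted p = 0.0142) but had its highest value at 4 h in both Cycles, at 293 and 143, and its windows overlapped in Cycle 1. Actb rose from 18400, 17809 and 20493 to 22664, 24945, 28907, 37952 and 25766 in Cycle 1 and from 17073, 16866 and 18774 to 21088, 31810 and 28948 in Cycle 2 (log2 difference 0.58 ± 0.13 SE, adjusted p = 0.00437). The member that fell was the myosin light chain gene Myl9 (-0.32 ± 0.12), a call that was lost in 11 of 14 fits that left out 1 library (adjusted p up to 0.11).

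**Figure D4:**
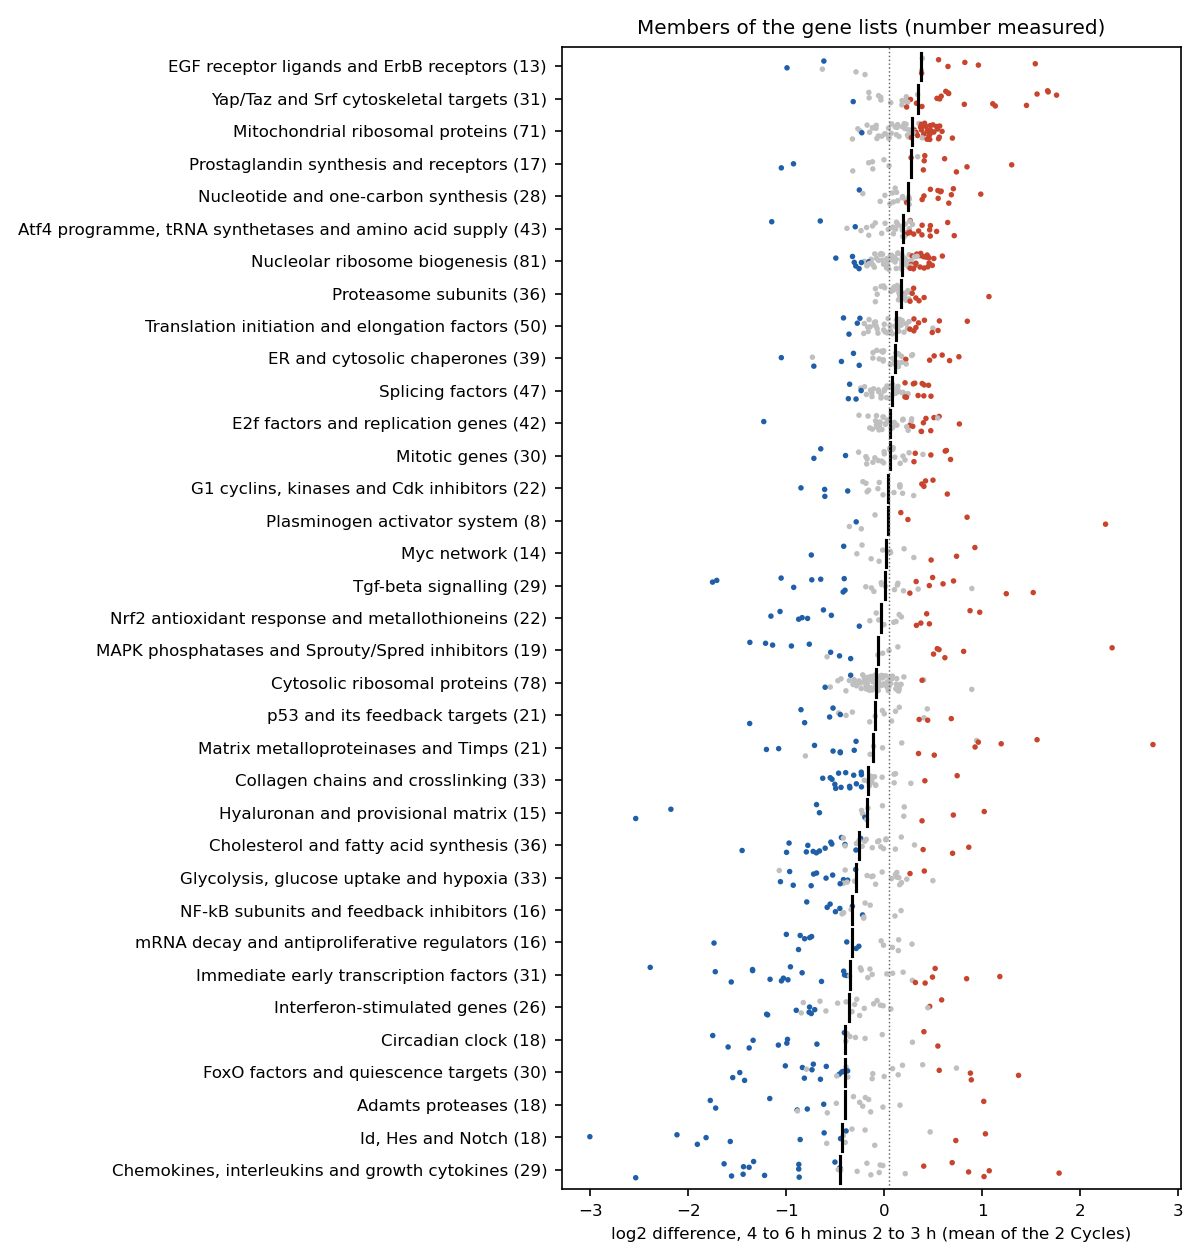
Log2 difference between 4 to 6 h and 2 to 3 h for every measured member of the 35 gene lists, ordered by median. Red and blue points passed the test as rises and falls, grey points did not, black bars mark the median of each list and the dotted line the median of all genes (0.05). The medians run from 0.38 for the EGF ligands and receptors to -0.45 for the cytokines.

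In the growth machinery the changes were small, and the calls of each list are read against the 24.4% of all genes that rose and the 16.1% that fell. Of 71 mitochondrial ribosomal protein genes 29 (40.8%) rose and 1 (1.41%) fell (median 0.28). Under the other scalings 17 to 26 rose and 2 fell, and with the 2 pairs 0 rose and 0 fell. Mrps27, Mrpl44 and Mrpl17 rose by 0.70, 0.59 and 0.57. The cytosolic ribosomal protein genes did not share this, with 1 rise and 2 falls among 78 and a median of -0.08, and with 0 rises and 4 to 7 falls under the other scalings. Many of them share sequence with pseudogenes, so their counts are uncertain. In nucleotide and one-carbon synthesis 12 of 28 genes (42.9%) rose and 1 (3.57%) fell (median 0.24). Under the other scalings 9 to 11 rose and 2 fell, and with the 2 pairs 0 rose and 0 fell. For Cad, the Cycle 1 libraries gave 310, 422 and 548 at 2 to 3 h and 806, 1074, 1114, 892 and 1497 at 4 to 6 h, and those of Cycle 2 gave 617, 582 and 678 and then 749, 967 and 1255. Cad, which starts pyrimidine synthesis, rose 1.98-fold (log2 difference 0.99 ± 0.17 SE, adjusted p = 0.00151) from its lowest values, reached at 2 h in Cycle 1 and at 2.5 h in Cycle 2. Gart and Dhodh, of the purine and pyrimidine pathways, rose by 0.71 ± 0.13 and 0.69 ± 0.14. Of 36 proteasome subunits 8 (22.2%, near the share of all genes) rose and none fell (median 0.17), and 3 to 5 rose under the other scalings and 12 without the 5.5 h and 6 h libraries of Cycle 1 and the 4 h library of Cycle 2. Psmd5, an assembly chaperone of the base, rose by 1.07 ± 0.18.

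In nucleolar ribosome biogenesis 22 of 81 genes (27.2%, near the share of all genes) rose and 7 fell (median 0.18), which became 12 and 10 under median ratios. Ncl, the abundant nucleolar protein nucleolin, did not pass the test (0.14 ± 0.10, adjusted p = 0.267), Bop1 and Utp20 rose by 0.59 and 0.51, and Utp15 fell by 0.49. Of 43 genes of the Atf4 programme, tRNA synthetases and amino acid supply 14 (32.6%) rose and 3 (6.98%) fell (median 0.19). Under median ratios 7 rose and 7 fell. The synthetase gene Tars rose by 0.71 ± 0.12, and Ddit4, an inhibitor of mTORC1, fell by 1.15 ± 0.13. Of 50 translation factors 10 (20%) rose and 4 (8%) fell (median 0.12), and of 47 splicing factors 11 (23.4%) and 4 (8.51%) (median 0.08). Of 39 chaperones 6 (15.4%) rose and 5 (12.8%) fell (median 0.11). All these shares lay under those of all genes (24.4% and 16.1%), that of rising splicing factors only just. Under median ratios the falls outnumbered the rises in all 3 lists, at 6 rises and 7 falls, 4 and 8, and 5 and 8. Eif2b4 and Herpud1 rose by 0.85 ± 0.16 and 0.76 ± 0.14, and Hspa1b fell by 1.05 ± 0.21.

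Of 22 G1 cyclin, kinase and inhibitor genes 5 (22.7%) rose and 4 (18.2%) fell, shares near those of all genes (24.4% and 16.1%), with a median of 0.04. Under TMM 3 rose and 4 fell, under median ratios 1 and 4 and by edgeR 4 and 5. The value of Ccnd1 was 524, 592 and 688 at 2 to 3 h and 848, 1182, 1110, 1234 and 1465 at 4 to 6 h of Cycle 1, and 766, 650 and 592 and then 614, 644 and 830 in Cycle 2. The cyclin D1 gene Ccnd1, whose product activates Cdk4 and Cdk6, separated the windows in Cycle 1 (log2 difference 0.94) and not in Cycle 2 (0.05), and its mean of 0.50 ± 0.13 (adjusted p = 0.0106) was lost without the 3 h library (0.46) or the 6 h library (0.43) of Cycle 2, where its Cycle 2 difference turned negative. The test of the difference between the Cycles gave it an adjusted p of 0.3. Ccne1, the cyclin of Cdk2, stood at 0.62 in Cycle 1, without overlap, and at 0.15 in Cycle 2, with overlap (adjusted p of the difference 0.46). Cdkn1a, the Cdk inhibitor p21, stood at 6983, 6406 and 4639 in the first window and at 3325, 2573, 2613, 2633 and 2345 in the second window of Cycle 1, and at 4968, 5110 and 4470 and then 3773, 3124 and 3031 in Cycle 2. It fell 1.8-fold (log2 difference -0.85 ± 0.11 SE, adjusted p = 0.00077) without overlap. The inhibitor gene Cdkn1c fell by 0.61 ± 0.14, and Skp2, part of the ligase that removes Cdkn1b, rose by 0.64 ± 0.22.

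Of 42 E2f and replication genes 9 (21.4%, near the share of all genes) rose and 1 (2.38%) fell (median 0.06). Under median ratios 3 rose and 3 fell. E2f1 did not pass the test (-0.26 ± 0.13, adjusted p = 0.128), and the helicase gene Mcm2 had a log2 difference of 0.84 in Cycle 1 and 0.02 in Cycle 2, with overlap in both (adjusted p of the difference 0.335). Cdt1 stood at 1194, 939 and 623 in the 2 to 3 h libraries of Cycle 1 and at 391, 292, 318, 355 and 355 in those of 4 to 6 h, and at 1212, 1079 and 703 and then 577, 431 and 392 in Cycle 2. Cdt1, which loads the helicase on origins, fell 2.34-fold (log2 difference -1.23 ± 0.17 SE, adjusted p = 0.00077) without overlap, the member of the list that fell. It had been at 180 and 280 before serum and at 1511 and 1303 at 1.5 h. Cdc7, the kinase that fires origins, and E2f4 rose by 0.77 ± 0.17 and 0.56 ± 0.12. Among 30 mitotic genes 6 (20%) rose and 3 (10%) fell (median 0.06), shares under those of all genes, and the counts became 6 and 6 by edgeR. Plk1 and Aurka rose by 0.64 and 0.62, and Nusap1 and Ccnb2 fell by 0.72 and 0.65.

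Lipid and glucose genes fell more often than they rose. In cholesterol and fatty acid synthesis, which Srebp factors control, 15 of 36 genes (41.7%) fell and 3 (8.33%) rose (median -0.26). Of all genes, 16.1% fell and 24.4% rose. For Scd2, the Cycle 1 libraries gave 3657, 2691 and 1614 at 2 to 3 h and 1113, 999, 914, 912 and 1210 at 4 to 6 h, and those of Cycle 2 gave 7114, 5933 and 4125 and then 2498, 1573 and 1574. Scd2, a stearoyl-CoA desaturase, fell 2.73-fold (log2 difference -1.45 ± 0.20 SE, adjusted p = 0.00077), without overlap and from 9932 and 14040 before serum. Sqle, an early step of sterol synthesis, fell by 0.97 ± 0.11 and Acss2 by 1.00 ± 0.17, while the last enzyme of cholesterol synthesis, Dhcr7, rose by 0.86 ± 0.14. Of 33 glycolysis, glucose uptake and hypoxia genes 12 (36.4%) fell and 2 (6.06%) rose (median -0.29). Under the other scalings 14 to 15 fell and 1 rose. Vegfa, the angiogenic factor and hypoxia target, stood at 9728, 8666 and 6524 in the first window and at 4773, 3734, 3679, 3019 and 3043 in the second window of Cycle 1, and at 7470, 7480 and 6443 and then 4840, 3518 and 3051 in Cycle 2. It fell 2.08-fold (log2 difference -1.06 ± 0.14 SE, adjusted p = 0.00077) without overlap. Hk2, the inducible hexokinase, fell by 0.97 ± 0.13 and Hk1 rose by 0.41 ± 0.11.

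Tgf-beta signalling moved in both directions, with 8 rises (27.6%, near the share of all genes) and 9 falls (31%) among 29 genes (median 0.01). The ligands bind receptor kinases that phosphorylate Smad proteins, and secreted proteins such as follistatin (Fst) and gremlin (Grem1) trap ligands of the family. The value of Smad3 was 3364, 4193 and 3537 at 2 to 3 h and 2327, 1206, 993, 514 and 544 at 4 to 6 h of Cycle 1, and 2420, 2791 and 2791 and then 1753, 761 and 559 in Cycle 2. Smad3 fell 3.37-fold (log2 difference -1.75 ± 0.34 SE, adjusted p = 0.00252) after a peak at 2.5 to 3 h. The coreceptor gene Tgfbr3 fell by 1.71 ± 0.25 and the ligand gene Tgfb2 by 1.05 ± 0.24. Fst stood at 1675, 1708 and 1924 in the first window and at 3100, 4614, 5449, 6692 and 7396 in the second window of Cycle 1, and at 1247, 1329 and 1449 and then 1800, 2709 and 3411 in Cycle 2. The mean log2 difference was 1.25 ± 0.20 (SE), with an adjusted p of 0.001. Grem1 rose by 1.52 ± 0.31, with overlap in Cycle 2, and Smad1 by 0.71 ± 0.12. Collagens and their crosslinking enzymes fell more often than they rose, with 15 falls (45.5%) and 2 rises (6.06%) among 33 genes and a median of -0.17. Col11a1, Col8a1 and Col14a1 fell by 0.63, 0.55 and 0.53, and Col5a3 rose by 0.74 ± 0.17.

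Among 13 EGF receptor ligand and ErbB genes 6 (46.2%) rose and 2 (15.4%) fell (median 0.38), against 24.4% and 16.1% of all genes. Under the other scalings 3 to 4 rose and 3 fell. Btc, betacellulin, rose from 45.6, 50.4 and 82.8 to 139, 180, 192, 175 and 189 in Cycle 1 and from 21.6, 27.7 and 40.7 to 58.1, 112 and 92.3 in Cycle 2 (log2 difference 1.54 ± 0.19 SE, adjusted p = 0.00068). Areg, amphiregulin, overlapped between the windows in both Cycles and did not pass the test (0.39 ± 0.21, adjusted p = 0.15), and Hbegf fell by 0.62 ± 0.11. Of 17 genes of prostaglandin synthesis and reception 8 (47.1%) rose and 2 (11.8%) fell (median 0.27). Under the other scalings 6 rose and 2 to 3 fell. Pla2g4a, the phospholipase that frees arachidonic acid, rose by 0.74 ± 0.13, and Ptgs2, the inducible cyclooxygenase, had log2 differences of 0.86 in Cycle 1 and -0.18 in Cycle 2 and did not pass the test (adjusted p = 0.0769).

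In the Nrf2 list 6 of 22 genes (27.3%, near the share of all genes) rose and 8 (36.4%) fell (median -0.03). Hmox1 stood at 32363, 30553 and 24952 in the 2 to 3 h libraries of Cycle 1 and at 14660, 9600, 8091, 6986 and 4792 in those of 4 to 6 h, and at 9287, 10673 and 12148 and then 10839, 8457 and 6937 in Cycle 2. Hmox1, which breaks down haem, fell by 1.06 ± 0.21 (adjusted p = 0.00282), with log2 differences of -1.82 in Cycle 1 and -0.31 in Cycle 2, where the windows overlapped. Srxn1 fell by 1.16 ± 0.22, and Nqo1, a quinone reductase with the same regulator, rose by 0.97 ± 0.15. Of 26 interferon-stimulated genes 7 (26.9%) fell, 2 (7.69%) rose and 17 did not pass the test (median -0.36). Of all genes, 16.1% fell and 24.4% rose. Under the other scalings 10 to 12 of the list fell and 0 to 3 rose. The antigen-processing genes Psmb9 and Tap1 fell by 1.20 ± 0.24 and 1.19 ± 0.25. Of 21 genes of p53 and its feedback targets 6 (28.6%) fell, 3 (14.3%) rose and 12 did not pass the test (median -0.09). Eda2r fell by 1.37 ± 0.19 and Plk2 rose by 0.68 ± 0.09.

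The size of the change was tested for a difference between the Cycles in every gene. Past an adjusted p of 0.05 in limma stood 1 gene, Kcnrg, with a mean value of 2.43 and values from 0 to 9.26, and edgeR called 0. At an unadjusted p under 0.05 limma had 1923 genes and edgeR 2026. Il6 had opposite signs in the Cycles. For Il6, the Cycle 1 libraries gave 99.7, 100 and 93.6 at 2 to 3 h and 101, 105, 131, 117 and 129 at 4 to 6 h, and those of Cycle 2 gave 1376, 1600 and 1254 and then 884, 641 and 463. The log2 difference of Il6, a cytokine of the acute phase response, was 0.24 in Cycle 1 and -1.13 in Cycle 2, and its test of the difference gave an adjusted p of 0.241.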

How the data were processed

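RNA of primary MEFs was sequenced as stranded polyA libraries (TruSeq, single-end 50 bp). Per the labels and the submitters' processing notes, the authors demultiplexed with CASAVA, aligned with STAR to mm9 and counted reads on exons with HOMER on both strands, so a gene and an antisense partner cannot be told apart. The deposited values are this signal, a read count scaled to 10000000 reads per library. Values with low counts were whole multiples of 1 read for 94.7% to 96.2% of genes (tolerance 0.1 read), which gave the depth. Samples were grouped by the Cycle and hour in their titles. Of the columns of values, 1 could not be tied to any sample by its name and was left out.

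Values were tested as log2(value + 1) with limma 3.58.1 in R 4.3.3, with a mean for each Cycle and window and the average of the within-Cycle differences as contrast, Benjamini-Hochberg adjustment over all 15895 genes and no filter. A second contrast compared the change between the Cycles. As an alternative, edgeR 4.0.16 was run on the recovered whole reads. On simulated counts for the comparison of the windows, limma recovered 185 of 200 changed genes and called 14 unchanged ones. These counts were independent between libraries, with the same dispersion for all genes, the same means in both Cycles and no time trend within a window. Changes were put only into genes with a mean value of at least 20. The simulation therefore does not give the error rate of the test on the real libraries. Other pseudocounts, filters, scalings, replicate blocks, hours and libraries were tried. Tables were handled with Python 3.11.15 and pandas 2.3.3 and plotted with matplotlib 3.10.9.

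The genes named are the 10 largest rises and 10 largest falls of at least 2-fold with a mean value of at least 20, the up to 3 largest called rises and falls of each of 35 lists, the genes that differ between the Cycles and 16 defining genes, and only some of these are described. Jag1, Notch1, Hes1, Cyr61, Krt6a, Krt75, Nr1d1, Il6 and Kcnrg were added after their values were seen. Most named genes were chosen by the size of their change in these libraries, so a lack of overlap between their windows is no further evidence. The members and lists were chosen with earlier results of these data known. Some results are not reported here.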

Additional observations from a re-analysis of the deposited data

Results flagged for a closer look

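The libraries labelled 0 h, which enter no comparison here, held immediate early transcripts far above those taken 1 h before serum. Fos was at 24883 against 914 in Cycle 1 and at 15149 against 466 in Cycle 2. Fosb was at 17294 against 55.6 in Cycle 1 and at 9099 against 31.5 in Cycle 2. The cause was not tested.

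In the 5 libraries of Cycle 1 at 4 to 6 h, 15 of 211 named genes had 1 library far from the rest. With independent libraries about 1 in 20 such groups would by chance. These libraries are successive hours with a time trend, in genes mostly chosen because they change, so that rate does not apply to them. Of the 15, 6 were in the 5.5 h library, the one that deviates most over all genes. There, Eif1 was at 1485 against a median of 969, Psmd7 at 2815 against 2120, Myl9 at 2117 against 1610, Col5a3 at 9740 against 11100, Skp2 at 283 against 357 and E2f7 at 54.7 against 89.4. The 4 h library, the first of the window, had Ptx3 at 1450 against 524, Heyl at 293 against 108, Zcchc5 at 140 against 56.1, Gart at 870 against 1100, Keap1 at 301 against 425 and Smad1 at 317 against 419. The last library, at 6 h, had Kcnh1 at 127 against 43.6 and Aurka at 115 against 141, and the 5 h library had Cyr61 at 24591 against 22400. The cause was not tested.

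Kcnrg changed differently in the 2 Cycles, with a difference in the log2 change (Cycle 1 minus Cycle 2) of 3.44 and an adjusted p of 0.00435 in limma. It was at 4.32 to 9.26 at 2 to 3 h and at 0 in all 3 libraries at 4 to 6 h in Cycle 2, and edgeR did not call it.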

How the results depend on the processing

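The counts of 3881 rises and 2565 falls (582 and 605 at 2-fold or more) stayed within 1.5 times under most settings, and no named gene that was called reversed. Leaving out each library in turn gave 3131 to 4053 rises, 2006 to 2784 falls, 441 to 791 rises and 469 to 774 falls of at least 2-fold, and 1 to 5 genes that differ between the Cycles (5 without the 3 h library of Cycle 1, 2 without that of Cycle 2). Without the 5.5 h and 6 h libraries of Cycle 1 and the 4 h library of Cycle 2, a choice made after seeing the data, there were 3826, 2508, 630 and 579, and 0 that differ. Outside that range, the replicate block of 2 pairs gave 682 rises and 654 falls. It used all 14 libraries but had only the 2 Cycles as replicates. With fewer libraries, Cycle 1 alone gave 2536 rises, and Cycle 2 alone 6 rises and 7 falls (all at least 2-fold). Comparing 4 to 6 h with the 3 h libraries left 1 early library in each Cycle, and its counts also fell outside that range. A mean value of at least 100 gave 1620 falls and 185 rises and 181 falls of at least 2-fold, a mean of at least 10 gave 393 such falls, and a pseudocount of 8 gave 258 and 267. For the difference between the Cycles, a pseudocount of 0.1 gave 8 genes, and a pseudocount of 8, a mean of at least 10, the trend and robust options and edgeR gave 0. TMM moved the share of rises among calls from 60.2% to 49.7% and median ratios to 46.9%, and among calls of at least 2-fold from 49.0% to 38.9% and 36.7%. The 2 pairs kept the call of 83 of the 203 called genes that the rule and the additions name, and 32 of the 203 lost the call without at least 1 library. Among those described were Mcm2 (9 of 14 fits), Rel (8), Clock (6), Ccne1 (5), Skp2 (4) and Has1 (2), while Areg, E2f1 and Myc each gained one in 1 fit. Deviations from the window means correlated between the Cycles at the same hour at 2 h (0.723), 3 h (0.725), 4 h (0.72) and 6 h (0.688). The correlation was weak at 2.5 h (0.184) and negative at 5 h (-0.277). Depth limits genes under a value of about 20, where a few reads decide a fold.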
